A study of Rattus norvegicus with 12 samples.

Results

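Homeobox and T-box transcription factors were compared between F111 rat fibroblasts kept attached to plastic (A16) and F111 cells that had grown as colonies in soft agar (Colony). The members were all probe sets with a single gene symbol of the Hox, Meox, Tbx, Pitx, Dlx, Msx, Lhx, Irx, Pax, Alx, Prrx, Meis and Pbx families and the sine oculis family (genes such as Six4), taken by symbol alone. They were 84 probe sets for 66 genes, of 31042 probe sets and 14217 genes tested in all. Of the 66 genes, 13 had several probe sets, and the brightest of them then stood for the gene.

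F111 is a fibroblast line of the Fischer rat. A16 cells had been plated on plastic for 16 h, while Colony cells had spent 16 h in suspension, then 7 days in soft agar, and were let attach briefly to a dish after their release from the agar. Both groups were the same line and were kept in the same serum medium, and A16 was the control. Their karyotypes differed in the paper. It reports a translocation between copies of chromosome 2 in a minority of A16 cells and in all colony cells. A gain of chromosome 7 was listed for most colony karyotypes and few of A16. The part of these differences in the values below was not tested. Cells taken straight after the suspension step were not analysed here, so the effects of suspension, agar growth and the selection of surviving cells cannot be told apart. Total RNA was hybridised to Affymetrix rat arrays, 3 per group: biological replicate 1, a technical array and biological replicate 2, in which order all array values are given. The technical array was averaged with replicate 1, which left n = 2 cultures per group. For Colony replicate 2 one label named tumour formation and the others named colonies. It was kept as Colony, and each call is given without it as well.

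Homeobox and T-box proteins bind DNA and set the position and kind of structure that embryonic cells make. Hox genes lie in clusters, in which the order of the genes follows the order of the body regions they pattern, and adult fibroblasts are known to keep a part of this code according to the body site they came from. Meis and Pbx proteins bind DNA together with Hox proteins, and T-box factors act in the limb, heart and body wall.

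Meox2 and Hoxd10 fell most in Colony cells, to values near the low end of the intensity scale, and Tbx3, Hoxa5 and Hoxb13 rose most. A gene was called when the adjusted p from limma was under 0.05 and the fold change was over 2. By this rule 6 of the 66 genes were higher in Colony (Tbx3, Hoxa5, Hoxb13, Tbx18, Prrx2 and Pax9), beside 4.36% of all genes, and 3 were lower (Meox2, Hoxd10 and Alx1), beside 4.75% of all genes. Counted by probe set the calls were again 6 and 3 of 84, beside 4.0% and 5.81% of all probe sets. These were 9.09% and 4.55% of the member genes, the second close to the share of all genes, and 57 genes were not called. The median log2 fold change was -0.04 over the members and 0.05 over all genes.

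At the adjusted p alone, 12 members were higher and 8 lower, beside 12.9% and 10.8% of all genes. The 3 A16 and 3 Colony arrays did not overlap for 33 of the 66 genes, beside 47.6% of all genes. In these cell populations fewer cells that express a gene and less RNA per cell cannot be told apart. No detection calls were used, and which of the low values lie above background is not known. For 29 of the 66 genes both group means lay below the median of the arrays, which was between 97.6 and 101 on the 6 arrays. The same held for 4694 of all 14217 genes, a smaller share, so low values were more common among the members.

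**Figure D1:**
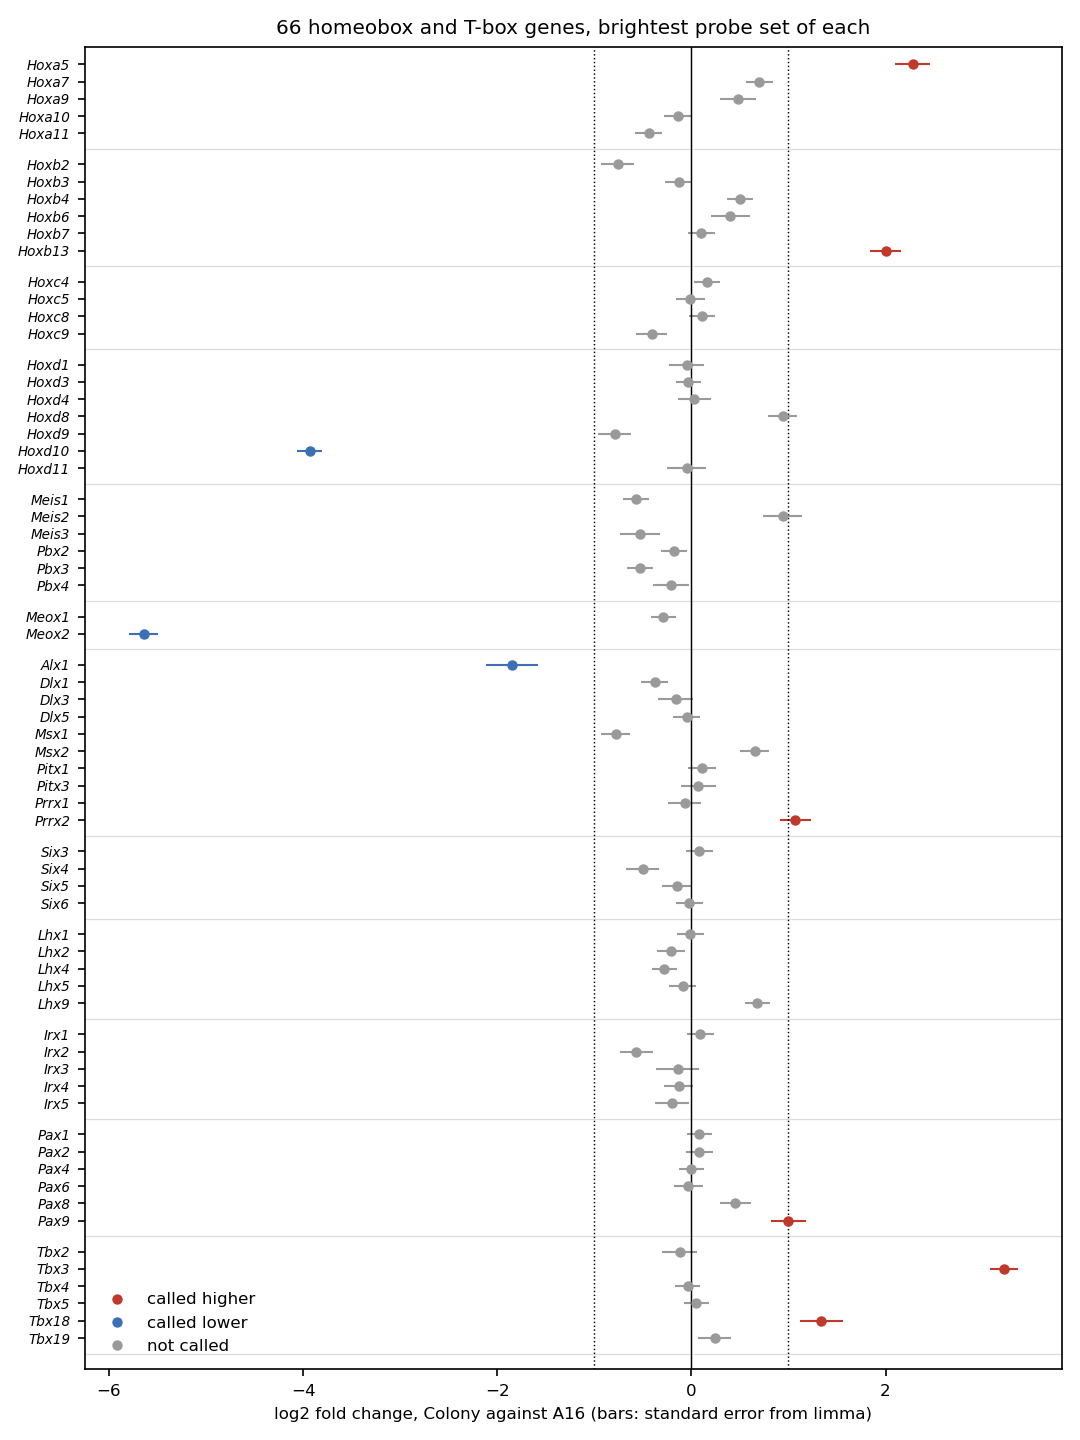
Log2 fold change of Colony against A16 (x axis) for the 66 genes, grouped by family on the y axis, with the standard error from limma as bars and dotted lines at a fold change of 2. The 3 genes called lower reach from -1.85 for Alx1 to -5.64 for Meox2, the 6 called higher from 1.00 for Pax9 to 3.22 for Tbx3, and the 57 others lie between -0.79 and 0.94.

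Of the 22 Hox genes measured, 2 were called higher and 1 lower, each in a different cluster. These were 9.09% and 4.55%, beside 4.36% and 4.75% of all genes. Hoxd10, a posterior gene used in the limb, the lumbar region and the urogenital tract, had RMA intensities of 544, 599.6 and 624 in A16 and 42.3, 34.5 and 40.3 in Colony. Every A16 array was far above every Colony array. Its log2 mean went from 9.22 ± 0.09 to 5.29 ± 0.06 (SD, n = 2), a log2 fold change of -3.93 (SE 0.13) or 15.2-fold lower, with an adjusted p of 1.39e-05 in limma. With PLIER, a second summary of the same arrays, the fold was 10.2 on the log2(value + 16) scale and 14.8 with nothing added.

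Hoxd10 was called and the genes next to it were not. Hoxd11, the posterior gene on one side, had intensities of 63.8, 55.3 and 49.1 in A16 and 45.3, 41.7 and 62.6 in Colony. These arrays overlapped, and the log2 fold change was -0.05 (SE 0.20, adjusted p 0.905). Hoxd11 was below the array median in both groups, so a fall as large as that of Hoxd10 could hardly show. On the other side Hoxd9 had 254, 211 and 302 in A16 and 183, 140.3 and 146 in Colony. The arrays of Hoxd9 did not overlap and its log2 fold change of -0.79 (SE 0.17) had an adjusted p of 0.016, but the fold was 1.72 and below the limit. With PLIER it was -1.41 at an adjusted p of 0.0549, and -1.61 at 0.0569 with nothing added. Hoxd9 thus went in the direction of Hoxd10. Hoxd8, the next gene, was on the opposite side of 0 with 488, 523 and 417 in A16 and 865, 875 and 889.7 in Colony. Its log2 fold change was 0.94 (SE 0.15, adjusted p 0.00495), a fold of 1.92. The anterior genes Hoxd1 (-0.05), Hoxd3 (-0.03) and Hoxd4 (0.03) lay close to 0.

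The bases just before the start of Hoxd10 and of the genes on either side of it are shown because Hoxd10 was called and its neighbours were not, and those of Meox2 because it had the largest change of all members. They are the 250 bases before the RefSeq start of each gene in assembly GRCr8, all on the plus strand: Hoxd11 at chr3:79992144-79992393, Hoxd10 at chr3:80001697-80001946, Hoxd9 at chr3:80007756-80008005 and Meox2 at chr6:59583775-59584024. Capitals mark matches, on either strand, to 6 sets of letters: the TATA box TATAAA, the CCAAT box, the E-box CACGTG, the homeodomain core TAATTA, the PBX-HOX composite TGATTNAT and the T-box half-site AGGTGTGA. The E-box and the homeodomain core read the same on both strands and were counted once, and no matches overlapped in the windows shown.
Hoxd11: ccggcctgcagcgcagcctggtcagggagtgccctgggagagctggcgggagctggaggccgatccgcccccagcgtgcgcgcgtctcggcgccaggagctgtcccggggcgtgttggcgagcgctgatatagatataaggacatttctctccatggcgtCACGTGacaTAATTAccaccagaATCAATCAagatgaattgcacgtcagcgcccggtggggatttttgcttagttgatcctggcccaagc
Hoxd10: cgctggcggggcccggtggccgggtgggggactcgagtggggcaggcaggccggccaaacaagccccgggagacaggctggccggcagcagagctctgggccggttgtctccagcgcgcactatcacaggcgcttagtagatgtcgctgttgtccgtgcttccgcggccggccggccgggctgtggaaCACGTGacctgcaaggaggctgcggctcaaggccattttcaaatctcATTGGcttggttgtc
Hoxd9: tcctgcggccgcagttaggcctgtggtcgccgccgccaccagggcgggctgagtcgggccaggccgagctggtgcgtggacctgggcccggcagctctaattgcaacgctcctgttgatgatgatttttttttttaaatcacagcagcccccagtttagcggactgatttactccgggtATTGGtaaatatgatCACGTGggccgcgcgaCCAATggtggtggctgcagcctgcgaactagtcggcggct
Meox2: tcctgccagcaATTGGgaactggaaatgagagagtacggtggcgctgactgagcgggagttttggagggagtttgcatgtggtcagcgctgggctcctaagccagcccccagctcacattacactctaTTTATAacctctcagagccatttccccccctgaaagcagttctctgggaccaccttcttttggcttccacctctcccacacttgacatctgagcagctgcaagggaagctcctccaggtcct

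The E-box letters stood before Hoxd11, Hoxd10 and Hoxd9, and CCAAT before Hoxd10 and, at 2 places, before Hoxd9. The homeodomain core and the PBX-HOX letters were found before Hoxd11 and not before Hoxd10 or Hoxd9, while the window of Meox2 held a TATA box and a CCAAT match. The window of Hoxd8 held none of the letters searched. Base composition also differed along the cluster: 61.2% of the bases before Hoxd11 were G or C, 67.2% before Hoxd10, 60.0% before Hoxd9 and 78.8% before Hoxd8, against 54.8% before Meox2. The number of CpG pairs was 20, 21, 20 and 38 in the Hoxd windows and 4 in that of Meox2.

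Of the 66 genes, 45 had a promoter entry. CCAAT was in 51.1% of these 45 and in 34.3% of all 27457 promoters, and CACGTG in 17.8% and 5.79%. TATAAA was in 8.89% of the members' promoters and 13.1% of all, TAATTA in 4.44% and 4.94%, TGATTNAT in 2.22% and 2.81%, and AGGTGTGA in 0.00% and 0.958%. The members' windows were also richer in G and C, with a median of 60.8% against 52.0%, and in CpG pairs, with a median of 15 against 6.0. These shares describe letters and not binding.

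**Figure D2:**
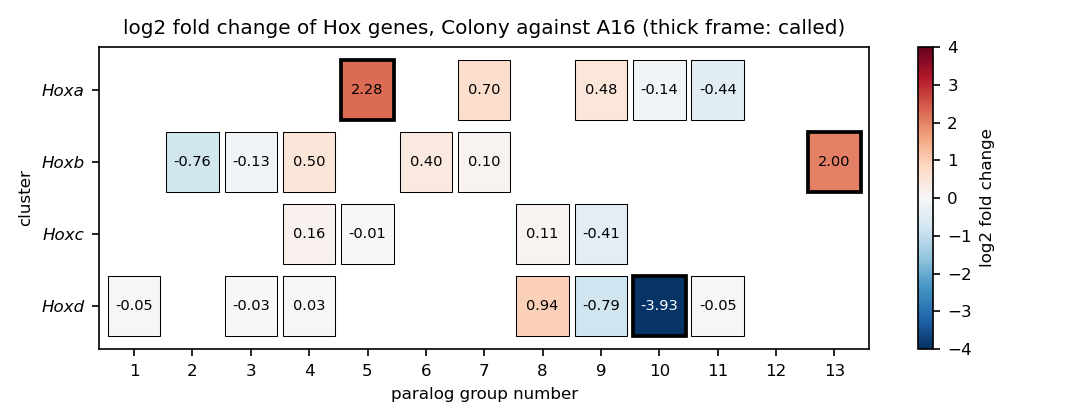
Log2 fold change of Colony against A16 for the 22 measured Hox genes, with the cluster on the y axis and the paralog group number on the x axis; thick frames mark called genes and empty places have no value here. Hoxd10 (-3.93) lies between Hoxd9 (-0.79) and Hoxd11 (-0.05), and the called genes Hoxa5 (2.28) and Hoxb13 (2.00) lie in other clusters.

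Hoxa5, a central gene that patterns the neck and thorax and the lung, was on the higher side. Its RMA intensity was 38.0, 33.1 and 27 in A16 and 146, 181 and 139 in Colony, with a clear gap between the groups. The log2 mean went from 4.95 ± 0.28 to 7.24 ± 0.16 (SD, n = 2), a log2 fold change of 2.28 (SE 0.18), 4.86-fold, with a limma adjusted p of 0.000276. PLIER gave 5.60-fold on the log2(value + 16) scale and 9.11-fold with nothing added, from PLIER values of 19.6, 20.9 and 21.6 in A16. Hoxa7, the nearest tested gene on one side of Hoxa5, had intensities of 81.2, 75.3 and 68.1 in A16 and 109, 121 and 122 in Colony. Its log2 fold change of 0.70 had an adjusted p of 0.0126 but was under the fold limit. Hoxa3l1, the nearest tested gene on the other side, gave 0.50 (adjusted p 0.0332), also under the fold limit. The more posterior genes of the cluster, Hoxa9 (0.48), Hoxa10 (-0.14) and Hoxa11 (-0.44), did not pass the adjusted p.

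Hoxb13, the most posterior Hoxb gene, known for its part in the tail end of the embryo and in the prostate, was also higher. The A16 arrays gave 96.4, 103 and 89.7 and the Colony arrays 444, 409 and 335. No arrays overlapped. The log2 mean rose from 6.56 ± 0.11 to 8.56 ± 0.25 (SD, n = 2), which is a log2 fold change of 2.00 (SE 0.16), 4.0-fold, at an adjusted p of 0.000359 in limma. PLIER gave 4.74-fold with 16 added and 6.38-fold with nothing added. Of the other Hoxb genes, Hoxb4 (0.50, adjusted p 0.0309) and Hoxb2 (-0.76, adjusted p 0.0211) passed the adjusted p in opposite directions and under the fold limit. Hoxb3 (-0.13), Hoxb6 (0.40) and Hoxb7 (0.10) did not pass it.

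The Hoxc cluster had no call. Hoxc4 (0.16), Hoxc5 (-0.01), Hoxc8 (0.11) and Hoxc9 (-0.41) all had an adjusted p over the limit. By paralog group, 0 of the 7 anterior genes (up to Hox4), 1 of the 7 central genes (Hox5 to Hox8) and 2 of the 8 posterior genes (Hox9 onward) were called, the last in opposite directions. Of all genes 4.36% were called higher and 4.75% lower. The median log2 fold changes of the paralog groups were -0.03, 0.40 and -0.27, beside 0.05 for all genes.

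The Hox cofactors of the Meis and Pbx groups had no call, beside 4.36% of all genes called higher and 4.75% lower. Of the 6 measured, 3 passed the adjusted p under the fold limit. Meis1 had intensities of 1668, 1431 and 1608 in A16 and 953, 1144 and 1084 in Colony, a log2 fold change of -0.57 (adjusted p 0.0199). Meis2 was on the opposite side, with 430.0, 399 and 428 in A16 and 566, 788 and 979 in Colony. Its log2 fold change was 0.94 (SE 0.20, adjusted p 0.015), and the Colony arrays were spread widely. Pbx3 had -0.53 (adjusted p 0.0261), while Meis3 (-0.53, adjusted p 0.12), Pbx2 (-0.18) and Pbx4 (-0.21) did not pass.

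Meox2, a homeobox gene of the somites and of limb muscle that is also known to restrain growth of vascular cells, had the largest change of the 66 genes. Its RMA intensity was 1569.6, 1458 and 1354 in A16 and 26.6, 26.2 and 31.1 in Colony. The lowest A16 array lay far above the highest Colony array. The log2 mean fell from 10.48 ± 0.11 to 4.84 ± 0.17 (SD, n = 2), with a standard error of the difference of 0.15 and a limma adjusted p of 9.7e-06. With PLIER the fold was 36.8 on the log2(value + 16) scale and 60.7 with nothing added, so its size depends on how values near the floor are treated. Meox1, the other member of the family, had 25.7, 24.8 and 27.2 in A16 and 20.1, 24.5 and 20.7 in Colony. These were low values in both groups, with a log2 fold change of -0.29 (adjusted p 0.178). The nearest tested genes around Meox2, Sostdc1 (0.01) and Agmo (-0.01), were not called.

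Among the 10 homeobox genes of mesenchyme and the face, Prrx2 was called higher and Alx1 lower. Alx1, which is needed for the mesenchyme of the skull and face, had intensities of 172, 160.0 and 171 in A16 and 59.1, 68.1 and 34.1 in Colony. The groups were apart, but the Colony cultures differed among themselves: the log2 mean was 7.39 ± 0.03 in A16 and 5.54 ± 0.63 in Colony (SD, n = 2). The log2 fold change was -1.85 (SE 0.27), 3.62-fold lower at an adjusted p of 0.00398 in limma. Without Colony replicate 2 it was -1.41 and still called, with the spread then taken from the A16 cultures alone. PLIER gave 4.14-fold lower with 16 added and 6.89-fold lower with nothing added. Rassf9, the gene next to Alx1, was called lower too (-2.29, adjusted p 7.72e-05).

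Prrx2, a gene of proliferating fetal mesenchyme and skin, had intensities of 2145, 2650.2 and 2151 in A16 and 6009.6, 4694 and 4266 in Colony. All Colony arrays were above all A16 arrays. The log2 fold change was 1.07 (SE 0.16, adjusted p 0.00386 in limma), a fold of 2.1. The second probe set of Prrx2 was not called: it had 55.9, 73.8 and 65.6 in A16 and 187, 75.3 and 61.2 in Colony, with 1 high array, a log2 fold change of 0.39 and an adjusted p of 0.406. With the mean of both probe sets the log2 fold change was 0.73, under the fold limit.

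Msx1 and Msx2, targets of BMP signalling in skull, tooth and limb, lay on opposite sides of 0. Msx1 had 427, 471 and 364 in A16 and 250.4, 224 and 233 in Colony, a log2 fold change of -0.78 (adjusted p 0.011). Msx2 had 429, 383 and 417 in A16 and 740.3, 676 and 587 in Colony, a log2 fold change of 0.65 (adjusted p 0.02), while its other probe sets gave -0.34 (adjusted p 0.178) and 0.08 (adjusted p 0.752). Neither gene reached a fold of 2. Prrx1 (-0.07), Dlx1 (-0.38), Dlx3 (-0.16), Dlx5 (-0.05), Pitx1 (0.11) and Pitx3 (0.07) did not pass the adjusted p.

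The T-box group had 2 of 6 genes called higher (33.3%, beside 4.36% of all genes), of which Tbx3 was called in 1 probe set of 4. Tbx3, which acts in limb and mammary gland and is known to repress cell cycle inhibitors, had intensities of 62.9, 69.1 and 72.9 in A16 and 679, 709 and 605 in Colony. Within each group the arrays were close, and the groups were wide apart. The log2 mean rose from 6.12 ± 0.10 to 9.34 ± 0.14 (SD, n = 2), a log2 fold change of 3.22 (SE 0.14), 9.35-fold, with a limma adjusted p of 3.22e-05. PLIER gave 7.66-fold with 16 added and 8.98-fold with nothing added. This was the value of 1 probe set of 4. It was the brightest only through its Colony values. In A16 its log2 mean of 6.12 lay below the 6.80 of another Tbx3 probe set.

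The other 3 probe sets of Tbx3 did not move with it. The first of them had 126, 122 and 99.7 in A16 and 127, 117 and 112 in Colony, a log2 fold change of 0.08 (adjusted p 0.794). The others gave 0.22 (adjusted p 0.309) and -0.13 (adjusted p 0.729). With the mean of all its probe sets the log2 fold change of Tbx3 was 0.85 and under the fold limit. Which transcripts each probe set reads was not tested.

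**Figure D3:**
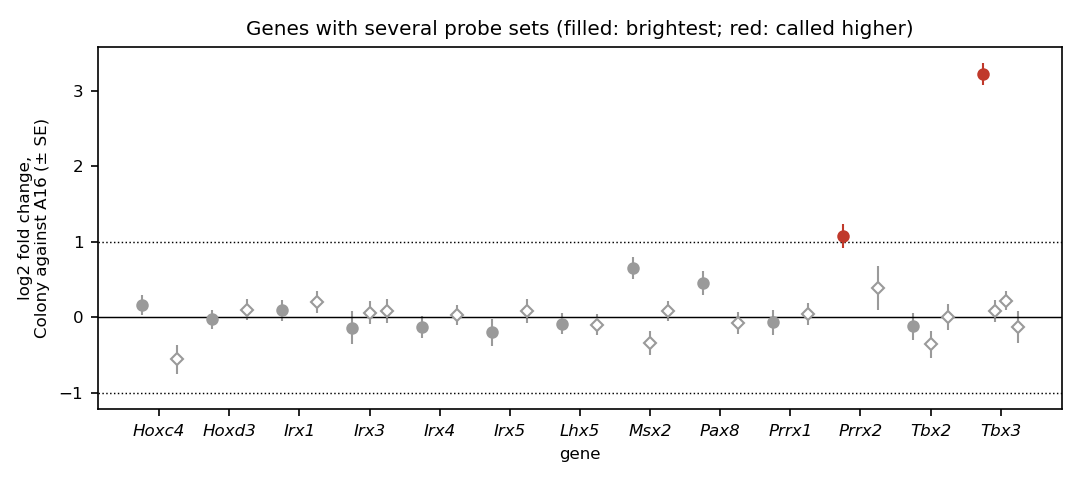
Log2 fold change of Colony against A16 (y axis, bars: standard error from limma) for every probe set of the 13 genes that have several, with the brightest probe set filled and the others open. Tbx3 has 1 probe set at 3.22 and 3 between -0.13 and 0.22, Prrx2 has 1.07 and 0.39, and 0 of the 18 open points were called.

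Tbx18, a gene of the epicardium, the ureter wall and the somites, had 141, 153 and 226 in A16 and 416, 439 and 494 in Colony. The groups did not overlap, although A16 replicate 2 was above the other A16 arrays. The log2 mean was 7.51 ± 0.44 in A16 and 8.84 ± 0.15 in Colony (SD, n = 2), a log2 fold change of 1.34 (SE 0.22), 2.52-fold, at an adjusted p of 0.00586 in limma. Snx14, the gene beside it, was called higher as well (1.03, adjusted p 0.00913). Tbx5, which lies next to Tbx3, gave 0.05, and Tbx2 (-0.12) and Tbx4 (-0.04) were not called.

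Tbx19, a pituitary T-box gene, depended on the array summary. RMA gave 56.4, 53.2 and 47.9 in A16 and 50.5, 56.0 and 69.0 in Colony, which overlapped, with a log2 fold change of 0.24 (adjusted p 0.384). PLIER gave 46.2, 38.9 and 39.4 in A16 and 97.2, 96.9 and 131 in Colony, which did not overlap. With PLIER the log2 fold change was 1.18 (adjusted p 0.00573 in limma) and Tbx19 would be called higher.

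Of the 6 Pax genes, Pax9, which acts in the teeth, thymus and vertebrae, was called higher. Its intensities were 63.4, 60.0 and 51.3 in A16 and 104, 94.2 and 128 in Colony. The groups did not overlap, but the fold of 2.00 (log2 fold change 1.00, SE 0.18, adjusted p 0.00806 in limma) was at the limit, and without Colony replicate 2 it was 0.81 on the log2 scale and not called. Pax1 (0.08), Pax2 (0.08), Pax4 (-0.00), Pax6 (-0.03) and Pax8 (0.45) did not pass.

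The sine oculis (Six3 to Six6), Lhx and Irx families, which pattern sense organs, brain, limb and heart, had no call among their 4, 5 and 5 genes. Lhx9 had 24.8, 21.8 and 22.2 in A16 and 30.8, 39.6 and 38.3 in Colony, a log2 fold change of 0.68 with an adjusted p of 0.0111 at low intensity. No other gene of the 3 families passed the adjusted p. Their log2 fold changes ran from -0.57 for Irx2 to 0.09 for Irx1, with Irx3 (-0.14), Irx4 (-0.13), Irx5 (-0.20), Six3 (0.08), Six4 (-0.50), Six5 (-0.15), Six6 (-0.02), Lhx1 (-0.01), Lhx2 (-0.21), Lhx4 (-0.28) and Lhx5 (-0.09) in between. With the Hoxc genes and the Hox cofactors these made 5 of 12 families, with 24 genes, in which nothing was called. Of all genes only 4.36% were called higher and 4.75% lower, so the lack of calls in 24 genes lies near these shares.

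**Figure D4:**
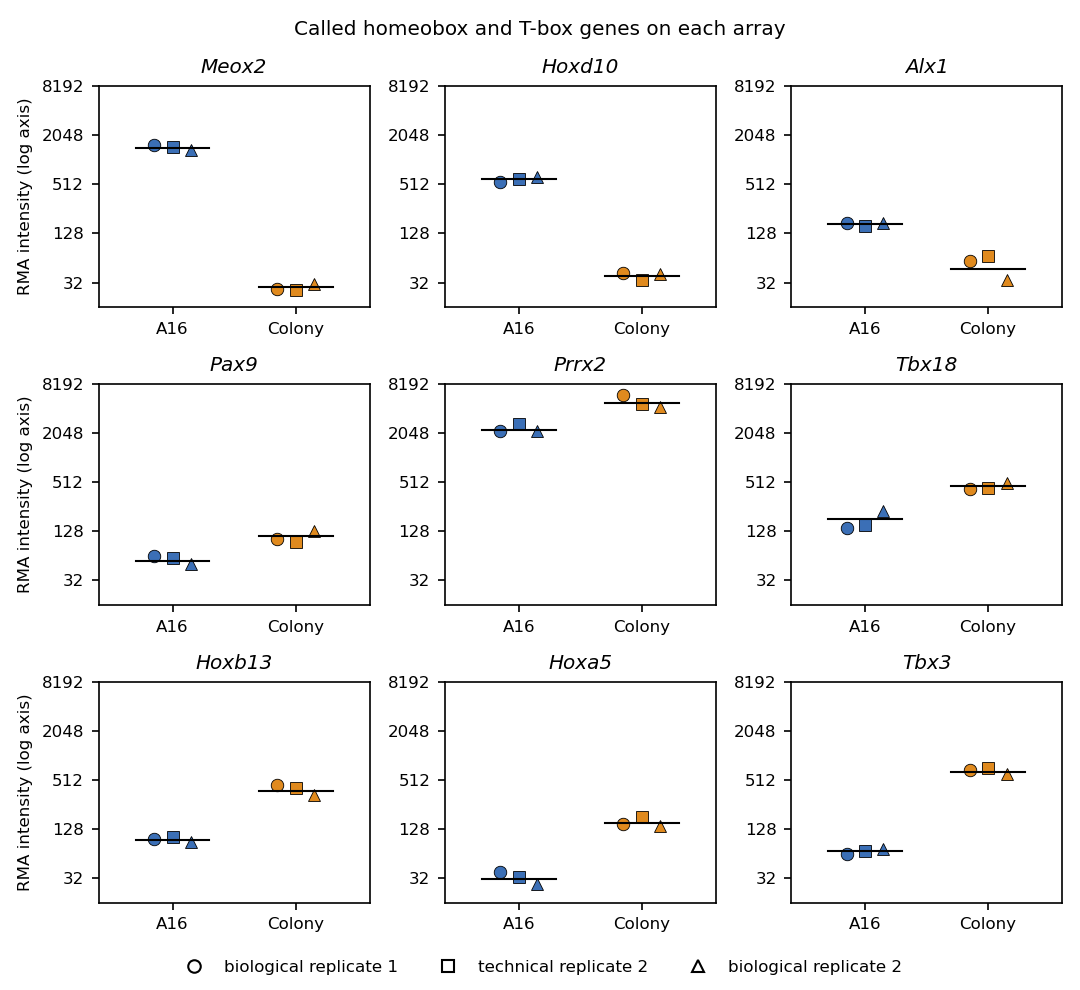
RMA intensity (y axis, log scale) of the 9 called genes on the 3 A16 and 3 Colony arrays, with symbols for biological replicate 1, the technical array and biological replicate 2 and a line at the mean of the 2 cultures. In every panel the groups are apart: Meox2 drops from 1354 or more to 31.1 or less, Tbx3 climbs from at most 72.9 to at least 605, and Pax9 shows the smallest step.

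Without Colony replicate 2, the array with the disagreeing label, the log2 fold changes were -5.76 for Meox2, -3.97 for Hoxd10, 3.32 for Tbx3, 2.39 for Hoxa5, 2.17 for Hoxb13, 1.23 for Tbx18 and 1.23 for Prrx2, and these calls and that of Alx1 held. Pax9 alone lost its call. That fit has 1 Colony culture, so its spread comes from the A16 cultures alone and leaves out the spread among Colony cultures, which among the called genes was widest for Alx1. For pairs of arrays from different cultures of one group, the SD of the log2 difference was 0.24 to 0.37 over the members. Over all probe sets it was 0.24 to 0.33. Between replicate 1 and the technical array averaged with it, the SD over the members was 0.16 in A16 and 0.28 in Colony. Over all probe sets it was 0.17 and 0.22. Between the Colony technical array and Colony replicate 2 the SD was 0.24 over the members and over all probe sets. These values do not settle which Colony culture that array came from. Between an A16 and a Colony array it was 1.01 to 1.05 over the members and 0.67 to 0.76 over all. This is a description with no test, and it includes the few genes with large changes.

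The nearest tested genes on both sides of the 9 called members in gene order were 18 genes, for some of which untested genes lay in between. Of these 18, 1 was called higher and 2 lower, beside 4.36% and 4.75% of all genes. Rassf9 beside Alx1 and Snx14 beside Tbx18 went in the direction of the member, and Med13l beside Tbx3 (-1.99, adjusted p 0.000187) in the opposite one.

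Genes that work with these factors or regulate them were looked at in lists that held 81 measured genes. Of these, 6 were called higher and 10 lower by the brightest probe set, beside 4.36% and 4.75% of all genes, and 65 were not called. Among the 65, Lmo4, Pcgf2, Kmt2a, Hand2, Foxc1 and Zfhx3 each had another probe set that was called. The Eya and Dach cofactors work with homeobox proteins such as Six4, and here 2 of 3 measured genes rose: Eya2, a phosphatase and coactivator, by 3.03 on the log2 scale (8.15-fold, adjusted p 6.44e-05, in 1 of its 2 probe sets) and Dach1 by 1.58 (adjusted p 0.00219), while Eya1 gave -0.31. Retinoic acid is a signal that sets Hox expression in the embryo. Of its 10 receptors, binding proteins and degrading enzymes, Crabp1, a cytoplasmic retinoic acid binding protein, fell by 4.35 (20.4-fold, adjusted p 1.64e-05), the receptor Rarg fell by 1.14 (adjusted p 0.0228) and the degrading enzyme Cyp26b1 rose by 1.34 (adjusted p 0.00209, in 1 of its 2 probe sets). The other 7 were not called.

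Polycomb and Trithorax proteins are chromatin regulators that keep Hox genes silent or active. Of 16 Polycomb genes 6.25% were called in each direction, near the 4.36% and 4.75% of all genes: Phc1 was higher (1.04, adjusted p 0.00451) and Cbx8 lower (-1.16, adjusted p 0.00164), and Ezh2, the main histone methyltransferase of the complex, gave -0.07. Of 11 Trithorax genes and histone demethylases Kdm6b, which removes the Polycomb mark, was lower (-1.49, adjusted p 0.00135). Kdm6a was listed but had no tested probe set, and Uty (-0.03), found for it through a synonym, stood in its place among the 11. The caudal genes Cdx1 (0.01) and Cdx2 (0.17) were not called. Of 4 further TALE cofactors Tgif2 was lower (-1.05, adjusted p 0.00328), and of 7 partners of LIM homeobox proteins Ssbp3 was lower (-1.34, adjusted p 0.00751). Of 28 other positional factors of mesenchyme 2 were higher and 4 lower (7.14% and 14.3%, beside 4.36% and 4.75% of all genes). The largest were Tshz1 (2.28, in 2 of 2 probe sets), Shox2 (-2.06, in 2 of 3), Foxf1 (-1.79, in 1 of 2) and Wt1 (-1.66, in 1 of 2).

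Of the fibroblast markers, Vim and Col1a2 had intensities at or above the 99.5 percentile of all probe sets in both groups, while Fap, Dcn and Lum lay below the array median in both. Of 10 markers 3 were called lower in Colony, beside 4.75% of all genes: Col1a1 (-2.72), Col3a1 (-1.40) and Thy1 (-1.31). At the adjusted p alone 5 were lower and 1 higher. The 5 include Lum (-0.78) and Col1a2 (-0.61), for which 1 of 2 probe sets was called. The summed intensity of the 10 was 55760.3 to 68675 in A16 and 38100.4 to 43078 in Colony. Of 4 epithelial markers Krt8 was higher (2.13, adjusted p 0.000267), with sums of 753 to 877 in A16 and 2992 to 3766 in Colony, while Epcam gave -0.13 and the sums without Krt8 were 83.4 to 85.2 and 97.8 to 105. Of 5 macrophage and leukocyte markers Csf1r was higher (4.01, adjusted p 4.15e-05), while Ptprc (0.14), Cd68 (0.11) and Adgre1 (0.16) were not called and Cd14 gave -0.56. Sums of that list were 1040.5 to 1181 in A16 and 1368 to 1480.1 in Colony, and without Csf1r 1006 to 1136 and 656 to 829.5. Of the markers of endothelium, skeletal muscle and neural cells 0 of 3, 0 of 4 and 0 of 4 were called. The part of these markers in the changes of the homeobox and T-box genes was not tested.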

How the data were processed

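RNA from 6 Affymetrix rat arrays, 3 of A16 and 3 of Colony cells, was summarised per probe set by the authors in Avadis, once by RMA and once by PLIER. Both were deposited as linear intensity, and the software versions were not given. Depth does not apply to arrays, and their number limits the precision. Here the RMA values were put on a log2 scale without a pseudocount. The technical array, which has no biological number, was averaged with biological replicate 1, so n = 2 cultures per group. The p-values set the group difference against the spread between these cultures, which limma moderated with the spread of all probe sets. After removal of 57 controls from 31099 probe sets, 31042 entered the linear model of limma 3.58.1 (lmFit, eBayes; R 4.3.3; prior degrees of freedom 4.76) with no filter. Benjamini-Hochberg adjustment covered all of them, and every adjusted p is from this model unless another is named. Genes were called at an adjusted p below 0.05 together with a change of more than 2 times. Gene symbols came from the array annotation (20826 probe sets with 1 symbol, 436 with several, 9780 with none) and were updated through the gene identifier with the RefSeq table of GRCr8 for 20758 probe sets. Where a gene had several probe sets, the brightest by mean log2 value was used. Promoter letters and figures were made with Python 3.11.15. The fit was tested on simulated data. Members, lists, named genes and alternatives were chosen with earlier results of these data known. Every called member is named, and partner genes only if called (up to 4 a list by size). Eya1, Ezh2, Cdx1, Cdx2, Uty, the genes beside called members and uncalled markers were added beside them. So were uncalled partners that had another probe set called. Alternatives were PLIER as log2(value + 16), other treatments of the technical arrays, a replicate block, leave-one-out, quantile or median scaling, a filter on dim probe sets, the methods' t-test and the mean of all probe sets of a gene. PLIER with nothing added and a crossed block were added after seeing the data. Arrays of suspended and of tumour cells were not analysed here. Slide and scan date were not given in the labels, and no batch was tested.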

Additional observations from a re-analysis of the deposited data

How the results depend on the processing

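The counts of members called, 6 higher and 3 lower, stayed within 1.5 times under every alternative run except the methods' t-test with adjusted p-values, which called 0 higher and 0 lower by gene and by probe set, among members and among all probe sets. Without adjustment that t-test called 5 higher and 2 lower among members and 1070 and 1313 among all probe sets, and Alx1 and Tbx18 were lost. Leaving out each biological replicate in turn, which leaves 1 culture in that group, gave 4 to 7 higher and 3 lower. Over these fits the median log2 fold change of the members was -0.038 to -0.001, beside -0.035 with all cultures. It was 0.022 with PLIER as log2(value + 16), -0.063 with quantile normalization, -0.010 with median-centred arrays and -0.137 with dim probe sets left out, so its sign is not settled. No direction of a called gene was reversed. Pax9 lost its call when the technical arrays went with replicate 2 (0.85), when all 6 arrays counted as separate samples (0.89), with a random block (0.95), quantile normalization (1.00), without A16 replicate 2 (0.87) and without Colony replicate 2 (0.81). Prrx2 lost it without A16 replicate 2 (1.00), without Colony replicate 1 (0.91) and with the mean of its probe sets (0.73), as did Tbx3 with that mean (0.85). Hoxd8 gained a call without A16 replicate 1 (1.08) and Meis2 without Colony replicate 1 (1.22). Tbx19 gained one with PLIER (1.18, and 1.46 with nothing added), and so did Lhx9 with nothing added (1.14). The cause was not tested. With dim probe sets left out 33 members were tested, and Alx1, Hoxa5 and Pax9 were not among them. The fit with the replicate block called the same 6 and 3 members, with no call lost or gained. The deviations of same-numbered cultures were weakly related (correlation -0.148), and a paired fit with the numbers crossed again called 6 and 3. With 2 cultures per group, small changes can be missed.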
